A study of Mus musculus with 4 samples.

Results

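The genes described here encode metalloproteases and their inhibitors in mouse melanocyte lines, namely every gene whose symbol begins with Mmp, Adam or Adamts (Adam followed by a digit) or Timp, together with Mme, Ece1, Ece2, Reck, Anpep and Enpep. RefSeq (GRCm38.p6) lists 91 such genes. Of these, 76 had a probe set of their own on the array, among 18193 genes measured, and 15 had none and were not analysed here. RNA was measured on Affymetrix arrays, 1 array per line, in 4 immortalized lines that had been established from the skin of C57BL/6J pups aged 3 days and cultured in medium with 200 nM of the phorbol ester TPA, which activates protein kinase C, until they covered 80% of the dish. The bcat* lines come from mice carrying, as a transgene in the melanocyte lineage, a β-catenin mutant that is stable and active in transcription, and the WT lines from wild-type mice. Lines 9v and 14d were labelled WT and lines 10d and 13d bcat*. The article describes lines 13d and 14d the other way round, so that the genotype of these 2 lines is given differently by the labels and the article, while 9v (WT) and 10d (bcat*) are the same in both. By label, 9v and 10d were male and 13d and 14d female. Each line is 1 culture, so that a difference between lines has no replicate check, and what belongs to genotype and what belongs to a line cannot be told apart within a pair.

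Metalloproteases use a zinc ion to cut proteins outside or at the surface of the cell. The matrix metalloproteases (MMPs) degrade collagens and other matrix, the ADAMs release the outer part of membrane proteins such as growth factors and receptors, and the ADAMTS enzymes are secreted and cut proteoglycans and procollagens. TIMPs and the membrane-anchored protein RECK inhibit them. Mme (neprilysin, CD10), the endothelin-converting enzymes and the aminopeptidases Anpep and Enpep sit in membranes and process peptides. In skin, enzymes of these families are known for the movement of melanoblasts through the dermis, for shedding of Kit ligand and Kit, and for the processing of endothelins, which act on melanocytes.

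The arrays were alike in their overall values, with a median intensity of 7 in line 10d and 8 in the others and between 35.8% and 36.1% of probe sets at an intensity of 32 or more, the level taken here as detection. All 9 melanocyte markers examined, Mitf, Tyr and Pmel among them, were detected in all 4 lines, with intensities from 2739 to 57474. No endothelial or Schwann cell marker was detected. Of 9 fibroblast markers, 2 were detected in at least 1 line. Col1a2 had intensities of 175 in 9v, 17 in 14d, 80 in 10d and 24 in 13d, and Postn of 38, 20, 34 and 61, while Col3a1 and Dcn did not exceed 8. The keratinocyte and leukocyte lists had 1 detected gene each, Krt10 (148, 106, 268 and 156 in 9v, 14d, 10d and 13d) and Csf1r (49, 51, 40 and 34). Ctnnb1, the β-catenin gene, had intensities of 30254 in 9v, 31844 in 14d, 31799 in 10d and 34368 in 13d, and the arrays do not separate the transgene from the endogenous gene. Dynlt3, the dynein light chain on which the study centred, had intensities of 11518 in 9v, 11963 in 14d, 4764 in 10d and 4055 in 13d, so that both lines labelled bcat* lay below both labelled WT. By RT-qPCR, the article reports less Dynlt3 RNA in its bcat* lines, 10d and 14d, than in 9v and 13d. On these arrays that direction held for the labelled genotypes and not for those of the article. Which reading is right was not tested. The labelled sex was borne out by Xist, at 4 in both male lines and at 1768 in 14d and 2124 in 13d. The article, by contrast, gives male mice as the source of its lines.

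Of the 76 metalloprotease and inhibitor genes, 20 (26.3%) were detected in at least 1 line, against 51.8% of all genes, and 15 were detected in all 4 lines. The 56 others stayed under the detection level in every line, and 50 of them did not exceed an intensity of 10. The detected genes were the proteases Mmp2, Mmp14 and Mmp16, the ADAMs Adam9, Adam10, Adam12, Adam15, Adam17 and Adam23, the ADAMTS genes Adamts1, Adamts4, Adamts5 and Adamts20, the related non-enzymatic Adamtsl4 and Adamtsl5, the membrane peptidases Mme, Ece1 and Ece2, and the inhibitors Timp2 and Reck. No gene of the list of ADAMs known mainly from testis or epididymis was detected (0 of 16), and neither were the collagenases Mmp8 and Mmp13, the gelatinase Mmp9, the stromelysins Mmp3 and Mmp10, or the aminopeptidase genes Anpep and Enpep. Just under the detection level lay Timp3, an inhibitor that binds to the matrix, at 31 in line 13d and at 6 in each of the others, and Adam19, a sheddase, with 30 in 10d and 16, 11 and 11 in 9v, 14d and 13d. A low value for a single probe set says only that this probe set was dim.

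**Figure D1:**
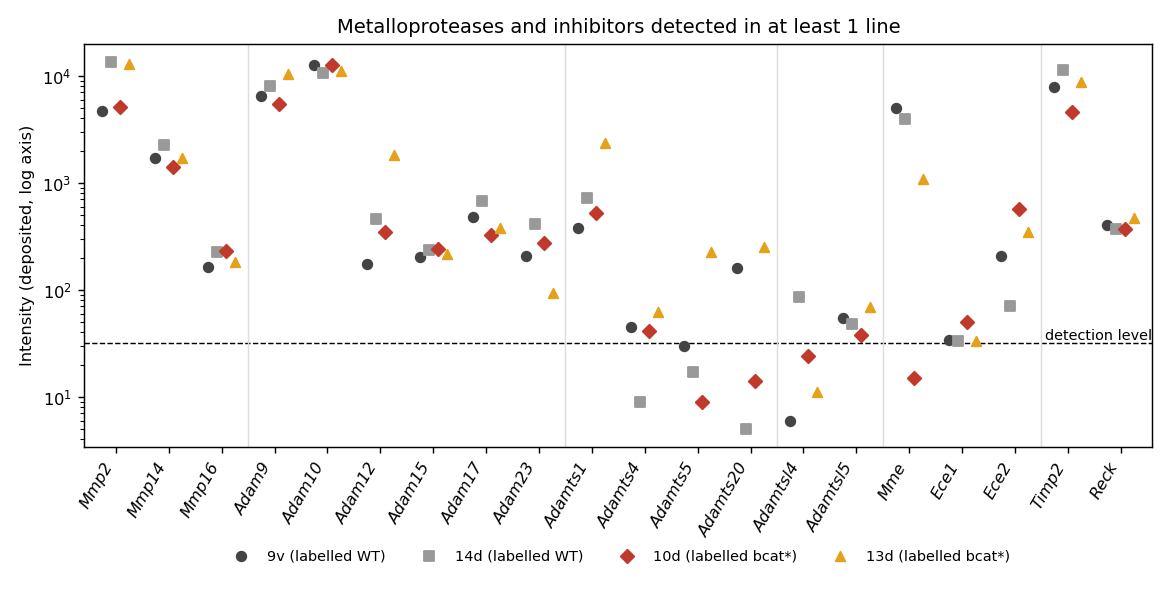
Deposited intensity (log axis) of the 20 detected metalloprotease and inhibitor genes in the 4 lines, 1 point per array and thus without error bars, grouped as MMPs, ADAMs, ADAMTS, ADAMTS-like, membrane peptidases and inhibitors. The dashed line marks an intensity of 32. Mme spreads from 15 in line 10d to 5006 in line 9v, while Adam10, Adam15 and Reck lie close together.

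The lines differed in genes of several of the families, and only the 20 detected genes could differ in the counts that follow. The highest line was at least 2-fold above the lowest in 11 of the 76 genes (14.5%), when values under the detection level were raised to it, and the same held for 20.8% of all 18193 genes. A spread of at least 4-fold was seen in 7 of the 76 (9.21%) and in 6.05% of all genes. These were Mme, Adam12, Ece2, Adamts20, Adamts5, Adamts1 and Adam23. A gene undetected in every line has no spread in this count. Both shares are therefore lowered more for the 76 genes, of which 26.3% were detected, against 51.8% of all genes. The median spread over the 76 genes was 0 on the log2 scale, since most were undetected throughout, and that over all genes was 0.18. Restricted to genes with a mean log2 value of at least 5 over the 4 lines, 9 of 17 metalloprotease and inhibitor genes (52.9%) and 40.1% of all such genes spread by at least 2-fold.

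Mme, which degrades peptides such as enkephalins, endothelins and substance P, was the gene that set the lines apart most. Its brighter probe set had an intensity of 5006 in 9v, 3912 in 14d, 15 in 10d and 1095 in 13d. Lines 9v and 14d were the highest, 13d was intermediate, and 10d was under the detection level. Line 10d was therefore at least 156.4-fold lower than 9v, at least 122.2-fold lower than 14d and at least 34.2-fold lower than 13d. The second probe set gave the same order, with intensities of 986, 647, 5 and 108. Line 13d was 4.57-fold lower than 9v and 3.57-fold lower than 14d, and 9v and 14d were 1.28-fold apart. Without line 10d the spread of Mme over the other 3 lines was 4.57-fold. The 2 lines labelled bcat* thus lay below the 2 labelled WT. With the article's genotypes, a bcat* line (14d) would lie with 9v at the top.

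RefSeq gives Mme 3 transcription starts, and 2 of the windows around them, from 250 bases before to 50 bases after the start, are shown because Mme differed most between the lines. The third overlaps the second. Capitals mark a match to the AP-1 motif, TGACTCA or TGAGTCA, which is the element through which phorbol esters are known to act.
Mme first start (GRCm38.p6, chr3:63294961-63295260, plus strand): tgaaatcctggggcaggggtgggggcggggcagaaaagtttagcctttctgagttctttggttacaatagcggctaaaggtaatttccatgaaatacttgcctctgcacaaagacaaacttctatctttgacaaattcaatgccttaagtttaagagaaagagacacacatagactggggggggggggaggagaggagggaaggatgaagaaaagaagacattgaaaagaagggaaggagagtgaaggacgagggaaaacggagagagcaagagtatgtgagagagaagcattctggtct
Mme second start (GRCm38.p6, chr3:63295622-63295921, plus strand): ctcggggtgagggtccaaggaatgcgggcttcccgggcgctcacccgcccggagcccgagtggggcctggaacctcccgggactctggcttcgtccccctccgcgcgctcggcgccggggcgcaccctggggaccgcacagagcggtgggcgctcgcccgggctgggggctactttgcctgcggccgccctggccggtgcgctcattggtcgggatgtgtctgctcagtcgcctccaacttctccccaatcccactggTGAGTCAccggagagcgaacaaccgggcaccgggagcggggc
The match TGAGTCA begins 9 bases into the transcript of the second start, counting the start as 1, and the same bases lie at position -215 of the third. Both strands were searched in 19 windows of the 14 detected genes that RefSeq promoters cover. Of the 19 windows, 2 held an AP-1 match, both of Mme and with the same bases, so that no other gene had one. Mme has 3 windows and so more chances of a match than a gene with 1. Over all 32851 promoter windows of this length, 5.20% held an AP-1 match. A Tcf/Lef motif (CTTTGAA or CTTTGAT) was found in 1 of the 19 windows, for Ece1, and in 8.65% of all windows. The E-box CATGTG, part of the motif bound by Mitf, was in none of the 19 and in 14.2% of all windows. Matches of different motifs did not overlap in these windows. A match is a run of letters and was not tested as a binding site.

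The other membrane peptidases were the endothelin-converting enzymes, which cut the precursor of endothelin to its active form. Ece2 had an intensity of 206 in 9v, 71 in 14d, 569 in 10d and 346 in 13d. Both lines labelled bcat* were above both labelled WT, with 13d 1.68-fold above 9v as the closest values. Line 10d was 2.76-fold higher than 9v, and 13d was 4.87-fold higher than 14d. The largest distance, between 10d and 14d, was 8.01-fold. The second probe set of Ece2 was at an intensity of 4 in every line, so that the difference rests on 1 probe set, and with the mean of both the spread was 0.58 on the log2 scale. Ece1 lay near the detection level, with intensities of 34 in 9v, 33 in 14d, 50 in 10d and 33 in 13d, and its other probe sets were undetected. Among the substrates of these enzymes, the endothelin genes Edn1, Edn2 and Edn3 were undetected in all lines. The promoter of Ece2 is shown as that of the membrane peptidase that went the opposite way to Mme, and holds none of the motifs searched.
Ece2 (GRCm38.p6, chr16:20629601-20629900, plus strand): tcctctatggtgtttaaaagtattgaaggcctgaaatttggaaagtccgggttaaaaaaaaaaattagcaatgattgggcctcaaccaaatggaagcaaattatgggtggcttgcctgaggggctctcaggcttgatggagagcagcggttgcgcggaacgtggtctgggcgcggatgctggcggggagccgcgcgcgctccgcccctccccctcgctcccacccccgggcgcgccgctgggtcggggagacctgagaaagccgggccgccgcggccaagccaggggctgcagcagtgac

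Among the ADAM genes, Adam12 differed most. It encodes a sheddase of EGF-receptor ligands and IGF-binding proteins. The intensity of Adam12 was 173 in 9v, 459 in 14d, 350 in 10d and 1836 in 13d. Line 13d was the highest, 4-fold above 14d and 10.6-fold above 9v, and line 10d was 2.02-fold above 9v. The second probe set, with 22, 95, 58 and 443, had the same order. Adam23, which lacks protease activity and binds integrins, went the other way in 13d, with an intensity of 93 against 209 in 9v, 414 in 14d and 274 in 10d. Its second detected probe set (104, 203, 199 and 156) placed 9v rather than 13d lowest and spread by 1.95-fold, so that the probe sets did not agree on the low line.

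The ADAMs known best as sheddases are Adam10 and Adam17. Adam10, which cuts Notch and many adhesion molecules, had intensities of 12547 in 9v, 10690 in 14d, 12690 in 10d and 11157 in 13d, a spread of 1.19-fold, and none of its 3 detected probe sets spread by more than 1.31-fold. Adam17, which releases TNF and EGF-receptor ligands, had 475 in 9v, 676 in 14d, 324 in 10d and 376 in 13d. Both lines labelled bcat* were below both labelled WT, by 1.26-fold at the closest values, and 14d was 2.09-fold above 10d. Line 14d was also the highest in the other probe sets of Adam17 (45, 64, 39 and 41, and 226, 363, 184 and 176). Adam9 had intensities of 6436 in 9v, 8026 in 14d, 5464 in 10d and 10425 in 13d, a spread of 1.91-fold. Adam15 ranged from 204 in 9v to 239 in 10d, and its other detected probe set from 94 in 9v to 151 in 10d.

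The 4 detected ADAMTS genes all had their highest value in line 13d, and 3 of them, Adamts4 excepted, spread by at least 2-fold. Of all genes with such a spread, 22.6% were highest in 13d. Adamts5 was among the detected genes only through 13d, so that its highest line was fixed by that filter. Adamts1, which cuts aggrecan and versican, had an intensity of 380 in 9v, 720 in 14d, 523 in 10d and 2350 in 13d, where it was 6.18-fold above 9v and 3.26-fold above 14d. Adamts5, the main aggrecanase of mouse cartilage, was detected in 13d alone, with 228 against 30, 17 and 9 in 9v, 14d and 10d, and was thus at least 7.12-fold higher there. Its other detected probe set gave 106 in 13d and 16, 24 and 10 in the others, and 2 further probe sets did not exceed 9 in any line. Adamts1 and Adamts5 are neighbours on chromosome 16, with 0 protein-coding genes starting between them in RefSeq. Adamts4, another aggrecanase, had 45 in 9v, 9 in 14d, 41 in 10d and 62 in 13d, and was thus not detected in 14d.

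Adamts20, the gene mutated in belted mice, whose white belt comes from a loss of melanoblasts, had an intensity of 159 in 9v, 5 in 14d, 14 in 10d and 253 in 13d. It was thus detected in 9v and 13d and under the detection level in 14d and 10d. Line 13d was at least 7.91-fold above 14d and above 10d, and 9v was at least 4.97-fold above both. Adamts20 has 1 probe set. By the labels, each genotype then has 1 line with the signal and 1 without it, whereas with the article's genotypes both WT lines have it and neither bcat* line does. The proteoglycanase list had 3 of its 7 measured genes with a spread of at least 2-fold (42.9%), against 20.8% of all genes, and a median spread of 0.95 on the log2 scale. The list was chosen with earlier results of these data known, so that this share is a description. Adamts5 counts among the 3 only through 13d, and with averaged probe sets its log2 spread was 0.08. The promoters of Adamts1 and Adamts20 are given as those of the ADAMTS genes with the clearest difference that RefSeq promoters cover. Neither holds any of the motifs searched.
Adamts1 (GRCm38.p6, chr16:85803064-85803363, minus strand): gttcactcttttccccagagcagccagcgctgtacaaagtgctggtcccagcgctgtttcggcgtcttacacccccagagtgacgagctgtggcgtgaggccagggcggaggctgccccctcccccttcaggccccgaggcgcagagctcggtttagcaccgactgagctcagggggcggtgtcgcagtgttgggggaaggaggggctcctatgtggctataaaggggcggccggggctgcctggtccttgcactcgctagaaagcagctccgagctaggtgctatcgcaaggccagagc
Adamts20 (GRCm38.p6, chr15:94404301-94404600, minus strand): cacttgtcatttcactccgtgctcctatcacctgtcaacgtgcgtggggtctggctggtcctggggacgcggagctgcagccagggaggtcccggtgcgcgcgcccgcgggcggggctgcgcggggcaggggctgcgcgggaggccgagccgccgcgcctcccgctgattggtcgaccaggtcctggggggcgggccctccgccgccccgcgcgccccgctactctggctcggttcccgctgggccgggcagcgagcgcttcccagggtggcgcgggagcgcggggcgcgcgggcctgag

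The ADAMTS-like proteins resemble ADAMTS enzymes without the protease part and bind the matrix. Adamtsl4, which binds fibrillin, was detected in line 14d alone, with an intensity of 85 against 6 in 9v, 24 in 10d and 11 in 13d. It was at least 2.66-fold higher there. Adamtsl5 had intensities of 54 in 9v, 48 in 14d, 38 in 10d and 69 in 13d.

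**Figure D2:**
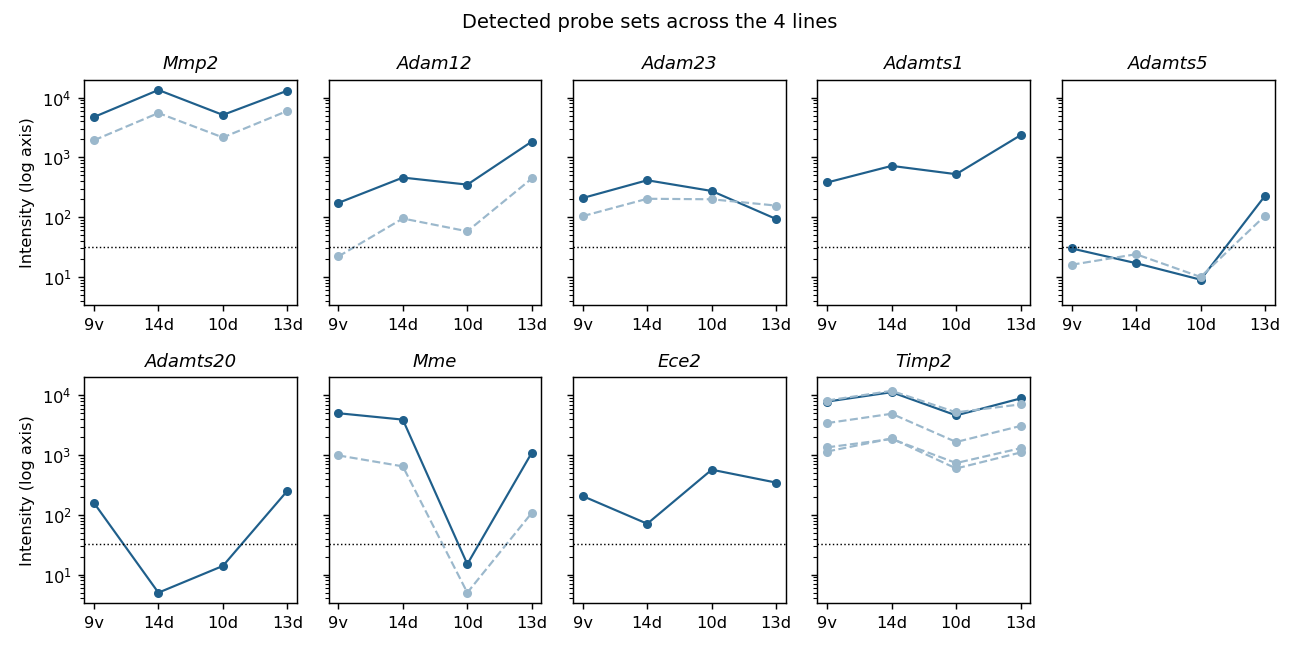
Deposited intensity (log axis) of every detected probe set of the genes with a spread of at least 4-fold and of Mmp2 and Timp2, in lines 9v, 14d, 10d and 13d. The solid line is the probe set taken for the gene, dashed lines are the others, points are single arrays joined only to show the order, and the dotted line is an intensity of 32. Both probe sets of Mme fall to their lowest value in 10d, and all 5 of Timp2 are lowest in 10d.

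Of the 13 secreted MMPs measured, Mmp2 (gelatinase A) was the only one detected. It had an intensity of 4720 in 9v, 13381 in 14d, 5123 in 10d and 13042 in 13d, so that 14d and 13d, the female lines by label, lay together above 9v and 10d. The closest values of these pairs were 2.55-fold apart. Lines of the same labelled sex differed by 1.09-fold (10d and 9v) and 1.03-fold (14d and 13d). The second probe set gave 1927, 5513, 2151 and 5981 in 9v, 14d, 10d and 13d, again with 14d and 13d above the others but with 13d the higher of them. Neither reading of the genotypes separates these values, since each puts 1 high and 1 low line in each group. Of the 2 detected fibroblast genes, Col1a2 was lower in both lines with more Mmp2 (17 in 14d and 24 in 13d, against 175 and 80 in 9v and 10d), while Postn was lowest in 14d (20) and highest in 13d (61). Their part in the difference was not tested.

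Mmp14, the membrane-bound activator of pro-Mmp2, had intensities of 1700 in 9v, 2239 in 14d, 1400 in 10d and 1694 in 13d, a spread of 1.60-fold. Its 3 probe sets were all highest in 14d and lowest in 10d. The intensity of Mmp16, another membrane-bound MMP, was 162 in 9v, 224 in 14d, 231 in 10d and 183 in 13d. Of the inhibitors, Timp2, which also takes part in the activation of Mmp2 by Mmp14, had intensities of 7833 in 9v, 11250 in 14d, 4604 in 10d and 8853 in 13d. Line 14d was 2.44-fold above 10d, and 10d was 1.70-fold below 9v. All 5 detected probe sets of Timp2 had their highest value in 14d and their lowest in 10d, with spreads from 2.29-fold to 3.18-fold. Reck varied by 1.26-fold, with 405 in 9v, 374 in 14d, 374 in 10d and 470 in 13d. Timp1 did not exceed an intensity of 5, and Timp4 was at 6 in every line.

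Over the 11 genes with more than 1 detected probe set, the probe sets agreed on the highest line in 9 and on the lowest line in 8. Both agreed in 6, namely Adam12, Adam15, Adamts5, Mme, Mmp14 and Timp2. This check was not possible for Adamts1, Adamts20, Adam9, Adamtsl4 and Reck, which have 1 probe set. Nor was it for Ece1, Ece2, Adamts4 and Adamtsl5, which have several probe sets but only 1 detected.

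Lines 10d and 9v are the pair whose genotypes are the same in the labels and in the article. Of the 76 genes, 2 were at least 2-fold higher in 10d (Adam12 and Ece2), with 3.94% of all genes called in this direction, and 2 at least 2-fold lower (Mme and Adamts20), with 5.02% of all genes. In both directions together these 4 genes are 5.26% of the 76, against 8.96% of all genes. Adam12 passed the 2-fold threshold narrowly, by 2.02-fold. Lines 13d and 14d, unlike in genotype by the labels and by the article, are of the same labelled sex. Line 13d was at least 2-fold higher in 5 genes (Adam12, Adamts1, Adamts20, Adamts5 and Ece2), against 5.55% of all genes, and lower in 3 (Adam23, Adamtsl4 and Mme), against 4.42%. Together these 8 genes are 10.5% of the 76, with 9.97% of all genes.

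Line 13d against 9v had 6 genes at least 2-fold apart (7.89%, against 6.56% of all genes). Adam12, Adamts1, Adamts5 and Mmp2 were higher in 13d (3.05% of all genes), and Adam23 and Mme were lower (3.51%). Line 14d against 9v had 5 (6.58%, against 7.77%), with Adam12, Adamtsl4 and Mmp2 higher in 14d (2.99% of all genes) and Adamts20 and Ece2 lower (4.78%). Between 13d and 10d, 7 genes were apart (9.21%, against 7.43%), of which 6 were higher in 13d (4.28% of all genes) and 1, Adam23, was lower (3.14%). Between 14d and 10d there were 6 (7.89%, against 12.1%), with Adam17, Adamtsl4, Mme, Mmp2 and Timp2 higher in 14d (5.77% of all genes) and Ece2 lower (6.28%). Whether the shares of the metalloprotease and inhibitor genes are near those of all genes cannot be read from these values in any pair. Genes undetected throughout cannot be apart, and 26.3% of the 76 genes were detected, against 51.8% of all genes. With so few genes called, 1 gene moves a share by 1.32 percentage points. Pairs that share a line are not independent of each other.

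**Figure D3:**
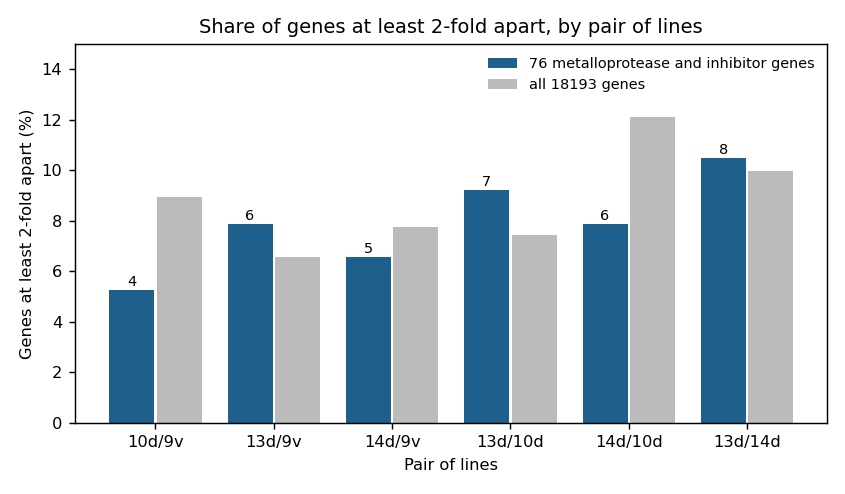
Percentage of genes at least 2-fold apart in each pair of lines, for the 76 metalloprotease and inhibitor genes (blue, with the number of genes above the bar) and for all 18193 measured genes (grey). The axis starts at 0, each line is 1 array, and values under the detection level were raised to it. Genes undetected in every line, 56 of the 76, thus cannot be apart. The blue bars range from 5.26% to 10.5% and the grey bars from 6.56% to 12.1%.

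To examine genotype over all 4 lines, the 2 lines labelled bcat* were compared with the 2 labelled WT by limma, over the 9415 genes detected in at least 1 line. None of the 20 metalloprotease and inhibitor genes fitted had an adjusted p under 0.05, and 0 of the 9415 genes did (0%). An unadjusted p under 0.05 was found for 1 of the 20 genes, Ece2, and for 7.85% of all genes. The log2 difference of Ece2 was 1.88 ± 0.64 (SE, 2 lines against 2), with a 95% interval from 0.14 to 3.61 and an adjusted p of 0.619 by limma. For Mme the log2 difference was -5.11 ± 2.14, with a 95% interval from -10.9 to 0.71 and an adjusted p of 0.660 by limma. Its lines 10d and 13d, both labelled bcat*, were themselves at least 34.2-fold apart, and the log2 difference was -2.01 without 10d and -8.20 without 13d. Adam17 had a log2 difference of -0.70 ± 0.31. The intervals of Adam10 (-0.46 to 0.54), Reck (-0.64 to 0.85) and Adam15 (-0.72 to 0.80) lay within 2-fold in either direction. That of Mmp2 (-1.90 to 1.98) did not. These intervals rest on 2 lines against 2, on the labelled genotypes and on the spread that limma assigns, so no difference by genotype is excluded. The probe set taken for Adam15 is one of possible cross-hybridization. Without such probe sets the log2 spread of Adam15 over the lines was 0.68 in place of 0.23.

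**Figure D4:**
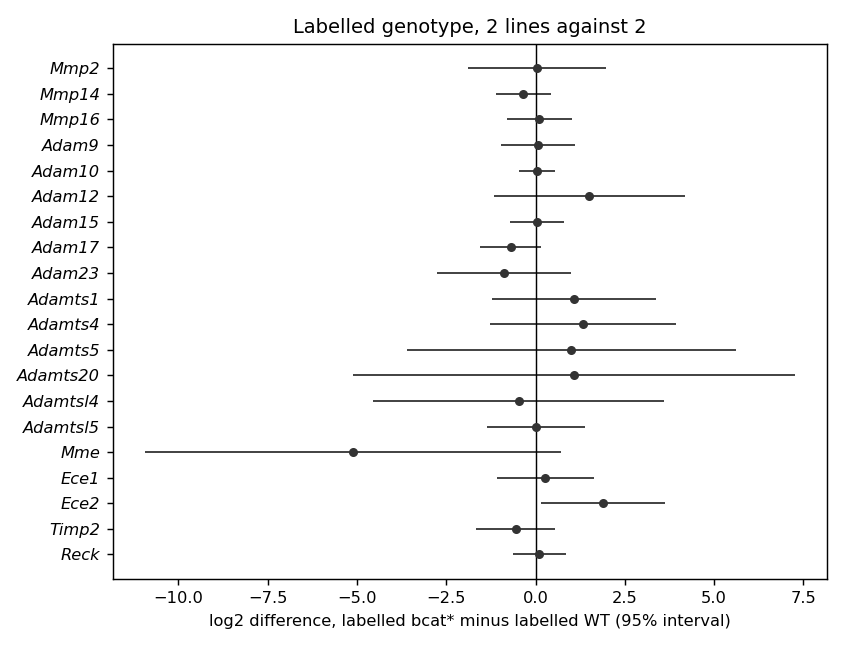
Log2 difference between the lines labelled bcat* and those labelled WT (points) with its 95% interval by limma (bars), for the 20 detected metalloprotease and inhibitor genes, 2 lines in each group. The interval of Ece2, from 0.14 to 3.61, lies above 0 before adjustment, and those of the 19 other genes include 0.

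With the genotypes of the article, limma again called none of the 20 genes and 0 of 9415 genes (0%), and 1 of the 20, Adamts20, had an unadjusted p under 0.05, as did 3.74% of all genes. Adamts20 then had a log2 difference of -4.58 ± 0.75 and an adjusted p of 0.970 by limma. The direction of Adamts20 depended on the reading, since by the labels the difference was 1.08 ± 2.28. Ece2 turned to -0.41 ± 1.12 and Mme fell by 3.27 ± 2.91 in the lines that the article gives as bcat*. Fitted values of genes under the detection level in a line, such as Adamts20 and Mme, use the deposited dim values and are no bounds.

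Groups that did not overlap by at least 2-fold were rare under each description of the lines. Both lines labelled bcat* were at least 2-fold below both labelled WT in 1 gene, Mme (1.32% of the 76, against 1.02% of all genes), and at least 2-fold above in none (0.528% of all genes). With the genotypes of the article, 1 gene, Adamts20, was at least 2-fold lower in both bcat* lines (0.379% of all genes) and none was higher (0.209%). Both lines labelled female were at least 2-fold above both labelled male in 1 gene, Mmp2 (0.313% of all genes), and below in none (0.231%). Each description thus had 1 such gene (1.32% of the 76) in 1 direction and none in the other, too few to set the descriptions apart. By any amount, both lines labelled bcat* were above both labelled WT in 1 of the 76 genes (9.55% of all genes) and below in 3 (10.1%), Adam17, Mme and Mmp14. The bcat* lines of the article were above its WT lines in 3 (8.34%) and below in 4 (7.27%). Lines labelled female were above those labelled male in 5 (6.57%), Adam9, Adam12, Adamts1, Mmp2 and Timp2, and below in 2 (6.73%). These shares are lowered for the 76 genes by the 56 that were undetected throughout.

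Genes that act with metalloproteases were read from lists chosen beside the families with earlier results of these data known, so that their shares are descriptions. Of 22 measured activators and regulators, 8 spread by at least 2-fold over the lines (36.4%, against 20.8% of all genes), with a median spread of 0.54 on the log2 scale against 0.18. Plat, the tissue plasminogen activator, had its highest value in 13d, with an intensity of 3981 against 1333 in 9v, 531 in 14d and 616 in 10d. Pcsk6, a proprotein convertase, was detected in 14d alone (440, against 10, 11 and 13 in 9v, 10d and 13d). The tetraspanin gene Tspan5, a partner of Adam10, had 378 in 9v, 154 in 14d, 905 in 10d and 220 in 13d, while Furin, which activates many ADAMs and membrane-bound MMPs, was level, at 127 in 9v, 145 in 14d, 127 in 10d and 126 in 13d.

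Of 31 measured substrates, 10 spread by at least 2-fold (32.3%), with a median spread of 0.25. Bcan, the proteoglycan brevican cut by ADAMTS enzymes, was detected in 14d alone, with an intensity of 2222 against 4 in each of the others. Tgfa, a ligand released by Adam17, had 257 in 9v, 722 in 14d, 13 in 10d and 115 in 13d. Axl, a receptor that ADAMs can shed, was detected in 14d (178) and 13d (194) and was at 5 and 3 in 9v and 10d. Of 24 measured metallopeptidases of related families, 5 spread by at least 2-fold (20.8%, the same share as over all genes), among them Nln, a peptidase of neurotensin (370 in 9v, 104 in 14d, 205 in 10d and 253 in 13d), and Bmp1, a procollagen C-proteinase (61, 180, 73 and 67).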

How the data were processed

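Total RNA of 4 mouse melanocyte lines was hybridised to Affymetrix arrays, 1 per line. The authors deposited normalized intensities, for which the submitters' processing notes name GCRMA. The version of GCRMA is not given in the sources used here. All deposited intensities were whole numbers from 2 upwards, read from the values as a linear scale not centred per gene, and were converted to log2. Rounding makes ratios of dim probe sets coarse. The platform annotation gave 1 gene for 34945 of 45037 probe sets, several for 932 (from which none was named) and no entry for 9160. RefSeq GRCm38.p6 held the Entrez gene of 34741 single-gene probe sets, and 0 symbols changed. Where a gene had several probe sets, that of the highest mean log2 value was taken. Detection was set at a log2 value of 5 (intensity 32). Counts and folds used values raised to that level, so that a fold to a line under it is given as "at least". A gene was called at 2-fold. The number of arrays limits the precision.

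Groups were taken from the labels, and limma (lmFit and eBayes with trend) with Benjamini-Hochberg adjustment over all fitted genes was the test. The article's genotypes for lines 13d and 14d were an alternative. Replicates are 2 independently derived lines per labelled genotype, which differ in labelled sex. The p-values thus measure the spread between lines, any difference by sex included. Values in all lines were given for genes with a spread of at least 4-fold, for Mme, for the inhibitors and for the 10 brightest genes, and others were added after their values were seen. Members and gene lists were chosen with earlier results of these data known. The limma script was tested on simulated data. Promoter sequences are RefSeq's (GRCm38.p6), and protein sequences were not used. Python 3.11.15, NumPy 2.4.6, pandas 2.3.3, matplotlib 3.10.9, R 4.3.3 and limma 3.58.1 were used.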

Additional observations from a re-analysis of the deposited data

Results flagged for a closer look

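Adamts20 differed between lines 10d and 9v, male by label, and between 13d and 14d, female by label, in opposite directions. It was at least 4.97-fold lower in 10d than in 9v and at least 7.91-fold higher in 13d than in 14d. By the labels both are differences of bcat* from WT, whereas with the article's genotypes both are lower in bcat*. The difference between the pairs was not tested, and Adamts20 has 1 probe set.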

How the results depend on the processing

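The labels give no replicate numbers by which lines could be paired, but each labelled sex has 1 line labelled bcat* and 1 labelled WT. With labelled sex as a block, 3 of the 20 detected genes (Adam12, Ece2 and Mme) had an unadjusted p under 0.05 by limma in place of 1, and 0 were called, the lowest adjusted p being 0.512. The number of genes with a spread of at least 2-fold, 11 as reported, was 7 when all probe sets of a gene were averaged and 7 at a 3-fold threshold, and ranged from 8 to 11 when each line was left out (chosen after seeing the data), with 13.6% to 17.4% of all genes. For the pairs of lines, the count for 13d and 14d was 5 with that average, which takes in undetected ones, and at 3-fold the counts were 2 for 10d and 9v, 1 for 14d and 9v and 2 for 14d and 10d. A stricter threshold lowers counts by construction. The other pair counts stayed within 1.5 times with averaged probe sets, without probe sets of possible cross-hybridization, after quantile normalization or median centring, at detection levels of log2 4 and 6 and at 3-fold, since 4 of 42 recomputed counts moved further. Of 114 recomputed spreads of the 20 detected genes, 15 shifted by over 1.5-fold, in 8 genes. With averaged probe sets the log2 spread was 6.12 for Mme, 0.84 for Adam23, 0.58 for Ece2 and 0.08 for Adamts5. At a detection level of log2 6 Adamtsl4 spread by 0.41.

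No metalloprotease or inhibitor gene was called by limma under any of 12 alternatives, and the lowest adjusted p among them lay between 0.486 and 0.970 (0.486 to 0.989 for Ece2, 0.564 to 1 for Mme and 0.637 to 1 for Adamts20). Over all genes, where 0 were called, 8 were with that average, 4 after median centring and 232 with no filter on low values, and the cause was not tested. With the article's genotypes the log2 difference of Ece2 reversed to -0.41 and that of Adamts20 to -4.58. Leaving out 1 line moved the log2 difference of Mme to between -8.20 (without 13d) and -2.01 (without 10d) and that of Ece2 to between 1.11 (without 14d) and 2.64 (without 9v). It turned Adamts20 to between -1.42 (without 14d) and 3.57 (without 9v), with -1.01 without 13d. Dim signals near the detection level limit what can be said of Ece1, Adamts4 and Adamtsl5.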
